A study of Mus musculus with 6 samples.

Results

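Chemokine and chemoattractant receptors of mouse macrophages are the subject here: Ccr1, Ccr2, Ccr3, Cxcr4, Ccrl2, C3ar1, C5ar1, Fpr1 and Fpr2. They were taken by name from a list of chemokine receptors and complement or peptide attractant receptors that leaves Cx3cr1 aside, and all 9 were found among the 36333 genes in the tables. The cells were bone marrow derived macrophages of C57BL/6 genotype, grown for 7 days with M-CSF, the growth factor that drives marrow cells into macrophages, at 10 ng/mL, and replated at 250000 cells per well. 3 samples received 100 µM stearic acid, a saturated fatty acid, for 24 h, and 3 received an equal volume of the ethanol vehicle for 24 h. Polyadenylated RNA was sequenced. All 6 samples share the genotype, the M-CSF culture and the addition of medium on day 3. No label tells if replicates are different animals or different cultures. P-values therefore cover the spread among these 6 samples alone, and that spread may be technical.

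These receptors are proteins with 7 membrane-spanning helices that let a leukocyte sense a gradient of a soluble attractant and move along it. Most couple to inhibitory G proteins, whose release drives phosphoinositide 3-kinase gamma, Rac activation and actin remodelling, and arrestins, receptor kinases and RGS proteins turn the signal off. Macrophages use CC receptors to answer chemokines, C3ar1 and C5ar1 to answer the complement fragments C3a and C5a, and Fpr1 and Fpr2 to answer formylated peptides of bacteria and mitochondria. The comparison asks which of these receptor transcripts differ after exposure to stearic acid.

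With stearic acid, Ccr2, Ccr3, Fpr1 and Fpr2 fell, Ccr1, Ccrl2 and C5ar1 rose, and C3ar1 and Cxcr4 did not pass the test. On the log2(TPM + 1) scale the largest fall was in Ccr2, at 8.62 ± 3.94 TPM with stearic acid and 20.9 ± 2.79 TPM with vehicle (SD, n = 3 each). In plain TPM the mean of Fpr2 was 2.56-fold lower and that of Ccr2 2.42-fold lower. The largest rise was in Ccr1, at 10.5 ± 1.53 TPM with stearic acid and 6.63 ± 0.293 TPM with vehicle (SD, n = 3 each). TPM is a length-scaled share of the transcripts of a library, so every change is one of relative level, and fewer cells carrying a receptor cannot be told apart from less RNA per cell. Of 11551 tested genes 24.7% passed limma's test with Benjamini-Hochberg adjustment over all of them at 0.05, 12.8% as higher and 11.9% as lower. Of the 9 receptors 7 passed (77.8%), 3 as higher and 4 as lower. The groups did not overlap in 8 of the 9 receptors, against 44.6% of tested genes; 3 lay wholly above vehicle (22.8% of tested genes) and 5 wholly below (21.7%). The receptors were chosen with earlier results of these data known, so these shares cannot show that the receptor class responded more than other genes. The median log2 fold change was -0.19 over the receptors and -0.03 over all tested genes. The 4 falls became 1 without vehicle replicate 2, and the 3 rises became 1 without vehicle replicate 2 or without vehicle replicate 3. The 4 falls were 6 without stearic acid replicate 1. Calls over all tested genes moved the same way in these fits. Lower calls went from 1374 to 165 without vehicle replicate 2 and to 2796 without stearic acid replicate 1. Higher calls went from 1482 to 384 without vehicle replicate 2 and to 483 without vehicle replicate 3.

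**Figure D1:**
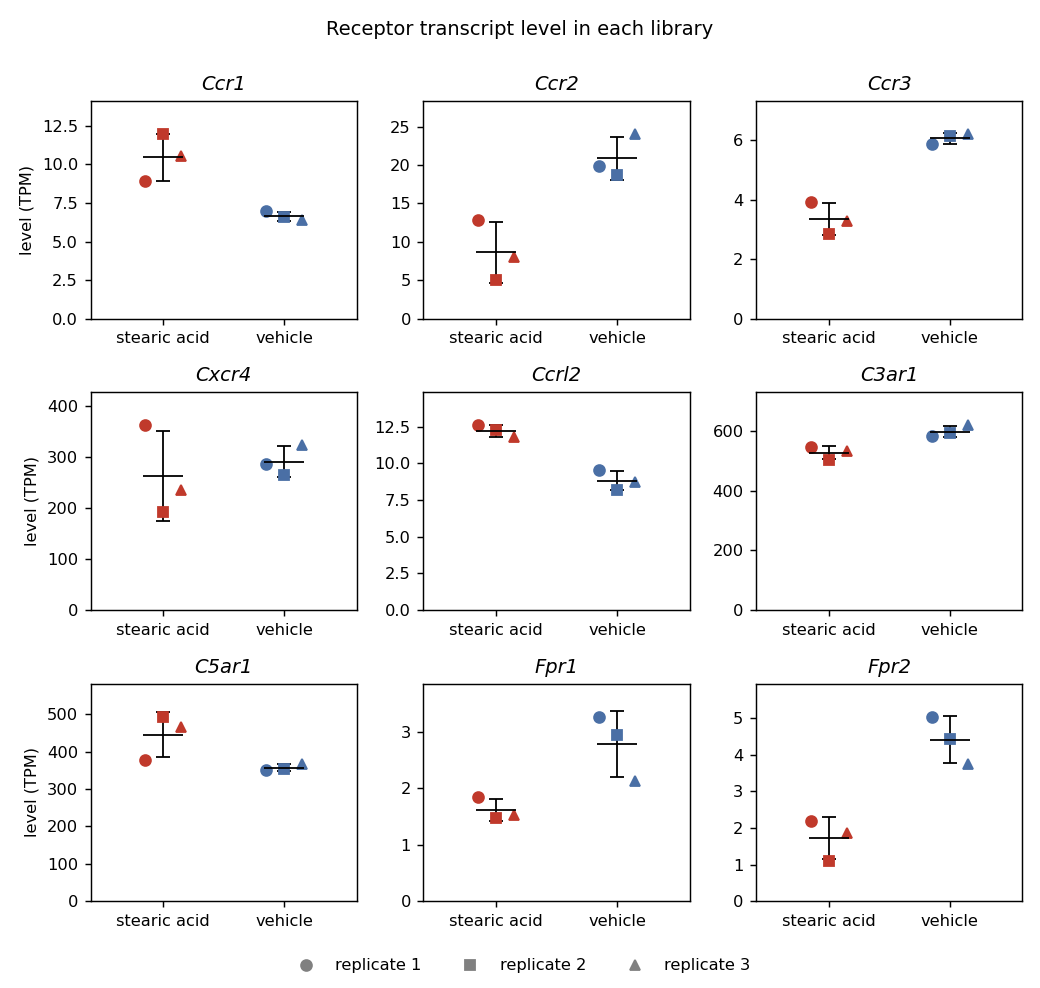
Level of each receptor in TPM (linear axis from 0) in the 3 stearic acid libraries (red, left) and the 3 vehicle libraries (blue, right); symbols mark replicate numbers, horizontal lines the means and bars the SD. Stearic acid and vehicle libraries are apart in every panel except Cxcr4, where stearic acid replicate 1 lies above and replicate 2 below all vehicle libraries.

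The levels fell into 2 tiers. C3ar1, C5ar1 and Cxcr4 together made up 96.8% to 97.2% of the summed receptor TPM in the stearic acid libraries and 96.0% to 96.3% in the vehicle libraries. The sum over all 9 was 1222 to 1327 TPM with stearic acid and 1256 to 1361 TPM with vehicle, so the groups overlapped (exact permutation test, two-sided, p = 0.7). In vehicle cells the order of the means was C3ar1, C5ar1, Cxcr4, Ccr2, Ccrl2, Ccr1, Ccr3, Fpr2 and Fpr1, and no receptor's range over libraries overlapped that of the next. In stearic acid cells Ccr2 stood sixth, below Ccrl2 and Ccr1. There the ranges of Ccrl2 and Ccr1, of Ccr1 and Ccr2, and of Fpr2 and Fpr1 overlapped.

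Ccr1, Ccr3 and Ccr2 are neighbours on chromosome 9 (GRCm38.p6), where Ccr1 (NCBI gene 12768, 123962126 to 123968692) is followed by Ccr1l1, Ccr3 (gene 12771, 124017825 to 124031692) and Ccr2 (gene 12772, 124101918 to 124109140) over 147 kb. Ccrl2 (gene 54199, 111054834 to 111057518) lies elsewhere on the same chromosome. Because neighbours in this group moved in opposite directions, the 250 bases before a RefSeq start of 3 of them are shown (GRCm38.p6, each on its gene's strand). Those before a start of Ccrl2 are added as the other CC-type receptor that rose. Ccr1 is at chr9:123968693-123968942 (minus strand), Ccr3 at chr9:124021721-124021970 (plus), Ccr2 at chr9:124101933-124102182 (plus) and Ccrl2 at chr9:111057519-111057768 (minus). The Ccr1 and Ccrl2 windows lie just outside the gene spans given above. Those of Ccr3 and Ccr2 lie inside the spans, before a start within the gene, so the windows are not like for like. Capitals mark matches to the motifs searched.
Ccr1: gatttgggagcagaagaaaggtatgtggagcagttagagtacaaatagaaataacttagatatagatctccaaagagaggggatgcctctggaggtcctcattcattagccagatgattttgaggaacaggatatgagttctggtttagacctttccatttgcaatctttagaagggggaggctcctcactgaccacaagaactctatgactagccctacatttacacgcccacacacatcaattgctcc
Ccr3: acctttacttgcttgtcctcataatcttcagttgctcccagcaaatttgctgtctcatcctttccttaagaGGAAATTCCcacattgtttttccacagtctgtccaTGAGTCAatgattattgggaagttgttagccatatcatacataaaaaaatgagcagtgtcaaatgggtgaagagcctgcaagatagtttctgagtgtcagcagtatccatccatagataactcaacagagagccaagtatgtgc
Ccr2: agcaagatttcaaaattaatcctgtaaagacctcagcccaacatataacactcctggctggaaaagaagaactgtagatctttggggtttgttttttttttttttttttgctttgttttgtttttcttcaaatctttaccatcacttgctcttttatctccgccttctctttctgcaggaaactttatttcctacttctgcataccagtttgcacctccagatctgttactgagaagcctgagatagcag
Ccrl2: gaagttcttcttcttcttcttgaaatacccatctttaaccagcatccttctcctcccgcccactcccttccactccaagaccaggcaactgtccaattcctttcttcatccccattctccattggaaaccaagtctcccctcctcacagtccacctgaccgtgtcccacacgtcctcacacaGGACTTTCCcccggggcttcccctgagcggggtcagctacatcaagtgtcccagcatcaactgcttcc

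6 motifs were searched on both strands in the 11 windows that RefSeq starts give for the 9 receptors. An NF-kB motif (GGANTTTCC), held by 1.07% of all such windows, was matched in Ccr3 as GGAAATTCC, 170 bases before the start, and in Ccrl2 as GGACTTTCC, 59 bases before it. An AP-1 motif (TGANTCA), held by 6.73% of windows, was matched in Ccr3, 137 bases before the start, and in C3ar1, 15 bases before it. Both Ccr3 matches lie inside the gene span given above, before a RefSeq start within that span. The CRE (TGACGTCA, 1.56% of windows), PU.1 (GAGGAAGT, 2.45%), interferon regulatory factor (GAAA, any 2 bases, then GAAA, 2.98%) and C/EBP-ATF (TGATGNAA, 3.40%) motifs had no match in these windows. No 2 of the matches overlapped, and Ccr3, which fell, and Ccrl2, which rose, both hold an NF-kB match. For Ccrl2 the match is in the window shown. Its windows at chr9:111057271-111057520 and chr9:111057245-111057494, before other starts, held none. A match describes letters and is not a measured binding site.

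Ccr2 is the receptor for CCL2 and marks inflammatory monocytes, and macrophages lower it as they mature. It had 12.8, 5.04 and 7.99 TPM in stearic acid replicates 1, 2 and 3, against 19.8, 18.7 and 24.0 TPM in vehicle replicates 1, 2 and 3. Every stearic acid library was below every vehicle library, and stearic acid replicate 2 was the lowest. The log2 fold change, on the log2(TPM + 1) scale used for all fold changes here, was -1.26 (SE 0.25, limma adjusted p = 0.012), and the mean was 2.42-fold lower. The call was lost when vehicle replicate 2 or 3 was left out (limma adjusted p = 0.061 and 0.067).

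Ccr3, the eotaxin receptor best known from eosinophils, had 3.91, 2.85 and 3.28 TPM with stearic acid, against 5.85, 6.13 and 6.20 TPM with vehicle. The vehicle libraries lay within 0.185 TPM of SD (n = 3), and no stearic acid library reached them. This gave a log2 fold change of -0.71 with an SE of 0.10 (limma adjusted p = 0.0042), which passed whichever library was omitted. Of 7 eosinophil markers, Prg3, Ear1 and Ear6 were listed at 0 in all 6 libraries, and Epx, the eosinophil peroxidase, reached 0.0134 TPM in stearic acid replicate 1 and was at 0 in the rest. The summed level of these markers, nearly all of it Siglecf, was 3.19 to 3.79 TPM with stearic acid and 3.76 to 4.76 TPM with vehicle.

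Ccr1, a receptor for CCL3 and CCL5, went the other way from its neighbours. It had 8.91, 12.0 and 10.5 TPM with stearic acid, against 6.95, 6.57 and 6.38 TPM with vehicle. All stearic acid libraries were above all vehicle libraries, and stearic acid replicate 2, the lowest for Ccr2, was the highest for Ccr1. On the log2 scale Ccr1 was 0.58 higher with an SE of 0.11 (limma adjusted p = 0.0089), and the call was lost when vehicle replicate 2 or 3 was omitted (limma adjusted p = 0.054 and 0.051). The ratio of Ccr1 to Ccr2 in a library was 0.694, 2.38 and 1.32 with stearic acid, against 0.351, 0.351 and 0.265 with vehicle. This ratio was chosen after the values were seen, and since Ccr1 lay wholly above vehicle and Ccr2 wholly below, its groups could not overlap.

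Ccr1l1, a CC receptor-like gene next to Ccr1, had 0.558, 0.348 and 0.596 TPM against 1.65, 1.28 and 1.94 TPM with vehicle, and it fell (log2 -0.80, limma adjusted p = 0.0050). It passed the filter on low values only through the vehicle libraries, so its call is partly set by the filter. Of the 5679 windows of 50 bases in the longest Ccr2 transcript, 2.27% also occur in transcripts of other genes, and reads from those windows may be counted for either gene.

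**Figure D2:**
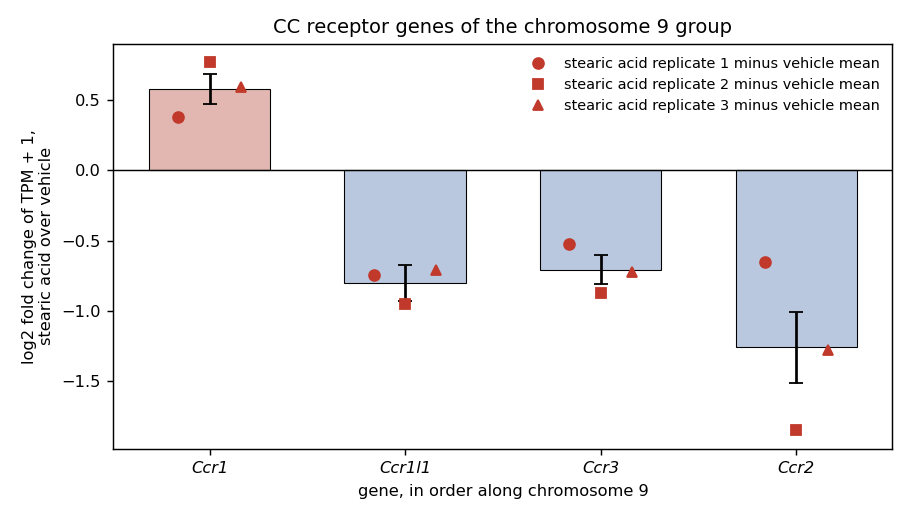
Log2 fold change of TPM + 1, stearic acid over vehicle, for 4 CC receptor genes in their order along chromosome 9; bars with SE are from limma and symbols give each stearic acid library minus the vehicle mean. Ccr1 lies above 0 in all 3 libraries, and Ccr1l1, Ccr3 and Ccr2 lie below 0 in all 3.

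Ccrl2, an atypical receptor that binds chemerin without signalling through G proteins and is known to be induced in activated macrophages, rose. It had 12.6, 12.3 and 11.8 TPM with stearic acid, against 9.54, 8.22 and 8.70 TPM with vehicle. Its stearic acid libraries lay closer together than those of any other receptor, with a relative SD of 3.37%, and here replicate 1 was the highest. Its rise of 0.43 on the log2 scale (SE of 0.08, limma adjusted p = 0.0098) passed in each of the 14 alternatives tried (limma adjusted p of 0.0034 to 0.04997). Chemerin itself (Rarres2) was listed at 0 in 5 libraries and at 0.0515 TPM in stearic acid replicate 1. Cmklr1, the signalling chemerin receptor, had 2.71, 2.57 and 2.31 TPM, against 2.99, 2.73 and 3.47 TPM with vehicle, and did not pass (limma adjusted p = 0.17).

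Cxcr4, the receptor for CXCL12 that holds leukocytes in the bone marrow (gene 12767, chromosome 1, 128588199 to 128592299), was the most variable of the 3 abundant receptors. It had 363, 192 and 236 TPM with stearic acid, against 286, 265 and 324 TPM with vehicle. Stearic acid replicate 1 was above all vehicle libraries and replicates 2 and 3 were below them. The log2 fold change was -0.19 (SE 0.20) and did not pass (limma adjusted p = 0.49). Without stearic acid replicate 1 it was -0.45 and passed (limma adjusted p = 0.0021), and without stearic acid replicate 2 it was 0.01 (limma adjusted p = 0.97).

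C5ar1, the receptor for the anaphylatoxin C5a (gene 12273, chromosome 7, 16246743 to 16259540), had 377, 493 and 465 TPM with stearic acid, against 351, 353 and 368 TPM with vehicle. The groups did not overlap, although stearic acid replicate 1 lay within 10 TPM of vehicle replicate 3. This was a rise of 0.31 on the log2 scale with an SE of 0.10 (limma adjusted p = 0.048). That call is at the threshold: it held in 5 of the 14 alternatives, and omitting any library but stearic acid replicate 1 lost it (limma adjusted p of 0.099 to 0.16).

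C3ar1, the receptor for C3a (gene 12267, chromosome 6, 122847140 to 122856157), was the most abundant of the 9 in every library. It had 545, 502 and 533 TPM with stearic acid, against 582, 592 and 618 TPM with vehicle. All stearic acid libraries were below all vehicle libraries, yet the log2 fold change of -0.18 (SE 0.06) did not pass (limma adjusted p = 0.065). It passed only without stearic acid replicate 1 among the 14 alternatives (limma adjusted p = 0.032). The ratio of C5ar1 to C3ar1 was 0.691, 0.981 and 0.872 with stearic acid, against 0.604, 0.597 and 0.594 with vehicle. It too was chosen after the values were seen, and the separation of each gene's groups fixes its own. C5ar2, the second C5a receptor, had 17.8, 14.9 and 16.6 TPM against 19.2, 17.8 and 22 TPM with vehicle and did not pass (limma adjusted p = 0.10).

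The formyl peptide receptors Fpr1 (gene 14293, chromosome 17, 17876471 to 17883939) and Fpr2 (gene 14289, 17887824 to 17893952) lie head to head, with starts 3.89 kb apart, and both fell. Fpr1 had 1.85, 1.48 and 1.53 TPM with stearic acid, against 3.27, 2.95 and 2.14 TPM with vehicle. Vehicle replicate 3 was nearest to the stearic acid libraries, though above them. Fpr1 had a log2 fold change of -0.52 with an SE of 0.13 (limma adjusted p = 0.023), and the call was lost on omitting stearic acid replicate 3, vehicle replicate 1 or vehicle replicate 2 (limma adjusted p of 0.080 to 0.091).

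Fpr2, which in mice also answers formylated peptides, had 2.20, 1.09 and 1.86 TPM with stearic acid, against 5.03, 4.42 and 3.75 TPM with vehicle. No stearic acid library reached the lowest vehicle library, and replicate 2 was the lowest again. For Fpr2 the log2 fold change was -1.01 with an SE of 0.16 (limma adjusted p = 0.0055), the mean was 2.56-fold lower, and the call was lost without vehicle replicate 2 (limma adjusted p = 0.051). At the depth recovered from the values, the libraries held 30.1 to 140 reads per kilobase of Fpr2 and 38.5 to 90.7 per kilobase of Fpr1, the fewest behind any of the 9. Of the 50-base windows of Fpr2, 33.9% also occur in the pseudogene Gm5966 and 7.10% in Fpr3. In the GENCODE vM21 annotation Fpr2 also overlaps Fpr3 on the same strand, so the level of Fpr2 is uncertain. Fpr3 was listed at 0 in all 6 libraries, as were Fpr-rs3, Fpr-rs4, Fpr-rs6 and Fpr-rs7, and how the counting treated reads with several matches is not stated in any source used.

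**Figure D3:**
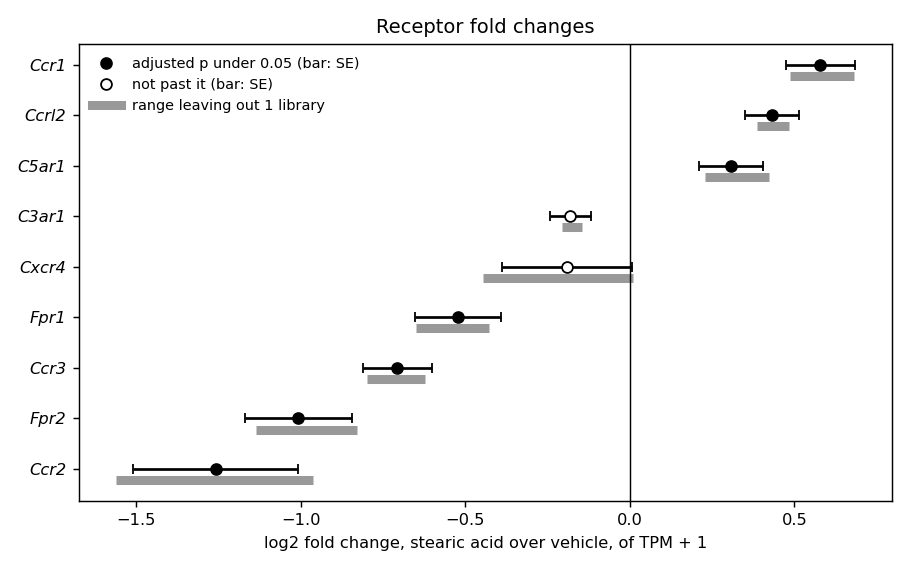
Log2 fold change of TPM + 1, stearic acid over vehicle, for the 9 receptors; circles with SE bars are from limma over all 6 libraries, filled where the adjusted p is under 0.05, and grey bars give the range over the fits that left out 1 library. Ccr2 and Fpr2 lie farthest below 0 and Ccr1 farthest above, and the range of Cxcr4 reaches from -0.45 to 0.01.

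The stearic acid libraries differed in how far they lay from vehicle, and most receptors followed the same order. In 8 of the 9 receptors replicate 2 was the farthest from the vehicle mean, and in 7 of the 9 replicate 1 was the nearest. Ccrl2 was the exception at the far end, with replicate 1 farthest. Over the 2856 genes that passed, the median absolute log2 change was 0.28, 0.60 and 0.42 in stearic acid replicates 1, 2 and 3. Relative to its mean, the SD was larger with stearic acid than with vehicle in 7 of the 9 receptors; the 2 others were Ccrl2 and Fpr1. What sets the stearic acid libraries apart from each other was not tested.

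**Figure D4:**
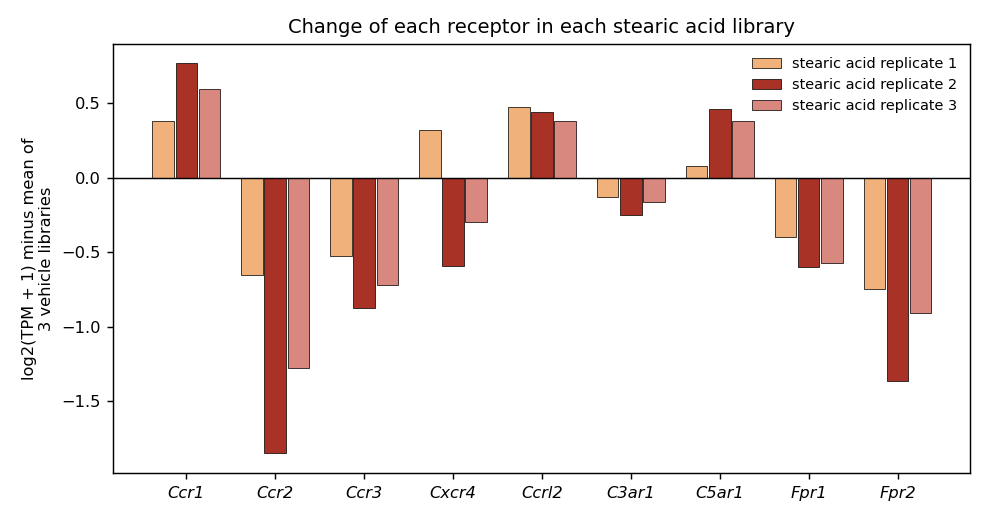
Level of each receptor, as log2(TPM + 1), in each stearic acid library minus the mean of the 3 vehicle libraries. Replicate 2 has the longest bar in 8 of the 9 receptors, and Cxcr4 has bars on both sides of 0.

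Genes with the profile across libraries most like that of the receptors with the largest rise and the largest fall on the log2(TPM + 1) scale, Ccr1 and Ccr2, were taken from 9565 other tested genes averaging 5 TPM or more. Likeness was the root mean square difference between the 6 log2(TPM + 1) values of each gene after centring on their mean. Nearest to Ccr1 were Sars, the cytosolic seryl-tRNA synthetase (0.0168), Uchl1, a ubiquitin hydrolase (0.017), and Abcb6, a porphyrin transporter (0.0241). Nearest to Ccr2 were Fgl2, a fibrinogen-like protein (0.0844), Hacd4, an enzyme of fatty acid elongation (0.0958), and Mrc1, the mannose receptor (0.0961). Fgl2 had 9.40, 3.41 and 4.94 TPM with stearic acid, against 15.4, 12.7 and 16.2 TPM with vehicle. The profiles share the split between groups and the order of the stearic acid libraries, and the likeness over 6 libraries is a description.

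Of 35 other chemoattractant receptors, 10 reached a mean of 1 TPM over the 6 libraries and were tested. Cx3cr1, S1pr1 and Ccr1l1 passed as lower. Ccr1l1 was among those tested only through its vehicle level, and of the other 9 tested genes 2 passed, a share near the 24.7% of all tested genes. Cx3cr1, the fractalkine receptor, had 406, 292 and 391 TPM with stearic acid, against 575, 547 and 598 TPM with vehicle (log2 -0.67, limma adjusted p = 0.0073), and it did not pass when vehicle replicate 2 was omitted (limma adjusted p = 0.0504). S1pr1, a sphingosine 1-phosphate receptor that guides egress from tissue, had 73.2, 56.1 and 67.0 TPM, against 80.3, 80.2 and 89.1 TPM with vehicle (log2 -0.35, limma adjusted p = 0.036), and that call survived only the omission of stearic acid replicate 1 among the 6 libraries. None rose by limma's test, and none was higher at an unadjusted p under 0.05, although 1 passed as higher with RPKM in place of TPM. Of the 10 tested, 5 were lower at an unadjusted limma p under 0.05. Wholly below vehicle lay 6 of the 10 (21.7% of all tested genes), and 1 lay wholly above (22.8%). Ccr1l1 is among the 5 and among the 6. Without vehicle replicate 1 or 3 Ccr1l1 was not tested. Of the 25 that were not tested, 7 were listed at 0 in every library, among them Ackr3, the atypical CXCL12 receptor.

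Of 19 ligands of the 9 receptors, 12 were tested and 2 rose (16.7%, against 24.7% of all tested genes that passed in either direction and 12.8% that passed as higher). Mif, a cytokine that also binds Cxcr4, had 502, 741 and 635 TPM with stearic acid, against 351, 380 and 311.5 TPM with vehicle (log2 0.83, SE 0.13, limma adjusted p = 0.0055), and it passed in all 14 alternatives. Ccl3, a ligand of Ccr1, had 59.2, 101 and 75.7 TPM, against 43.1, 44.7 and 46.0 TPM with vehicle (log2 0.77, limma adjusted p = 0.013). Ccl2, the main ligand of Ccr2, had 25.8, 154 and 75.3 TPM with stearic acid, against 41.6, 54.4 and 29.8 TPM with vehicle and missed the threshold, at log2 0.71 with an SE of 0.52 (limma adjusted p = 0.33). Within stearic acid, the library with the highest Ccl2 (replicate 2) had the lowest Ccr2, and the library with the lowest Ccl2 (replicate 1) had the highest Ccr2. This order of 3 libraries was picked out after the values were seen. Over the 2856 genes that passed, replicate 2 also lay farthest from vehicle and replicate 1 nearest. A link between Ccl2 and Ccr2 was not tested. None of the ligands fell by limma's test, and none was lower at an unadjusted p under 0.05. The median was 0.16. Omitting stearic acid replicate 1 gave 5 rises and 2 falls, and without vehicle replicate 2 or 3 there was 1 rise. Over all tested genes, omitting stearic acid replicate 1 took the 1482 higher calls to 2217 and the 1374 lower calls to 2796. Higher calls were 384 and 483 without vehicle replicates 2 and 3. Cxcl12 was at most 0.0654 TPM, Ccl11, an eotaxin, was listed at 0 in all 6 libraries, and Hc, which encodes C5, was at most 0.008 TPM.

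Of 20 tested genes that carry the receptor signal inside the cell, 1 rose and 2 fell, with a median of -0.10. The share that passed, 15%, was below the 24.7% of all tested genes. Pik3cg, the catalytic subunit of phosphoinositide 3-kinase gamma, had 58.0, 45.4 and 55.8 TPM with stearic acid, against 71.8, 69.9 and 80.2 TPM with vehicle (log2 -0.48, limma adjusted p = 0.015). Gng2, a G protein gamma subunit, had 91.0, 67.5 and 80.6 TPM, against 104, 103 and 112 TPM with vehicle (log2 -0.42). Pik3r5, a regulatory subunit of the same kinase, had 243, 239 and 236 TPM, against 203, 175 and 218 TPM with vehicle (log2 0.27, limma adjusted p = 0.043). Gnai2, the more abundant of the 2 listed inhibitory G protein genes, had 1098, 1095 and 1143 TPM against 1243, 1080 and 1223 TPM and did not pass. Without vehicle replicate 2 or 3 none of the 20 passed, without stearic acid replicate 1 there were 5 falls and 1 rise, and in the fits without stearic acid replicate 2, stearic acid replicate 3 or vehicle replicate 1 the rise was lost. Without stearic acid replicate 3 or vehicle replicate 1 there was 1 fall. Over all tested genes, 1482 were higher and 1374 lower with every library. Without stearic acid replicate 1 these were 2217 and 2796. They were 384 and 165 without vehicle replicate 2, and 483 and 136 without vehicle replicate 3. Higher calls were 1044, 583 and 687 without stearic acid replicate 2, stearic acid replicate 3 and vehicle replicate 1.

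Among 12 tested genes that end receptor signalling, 2 rose and 3 fell (41.7%, against 24.7% of all tested genes), with a median of -0.19. Rgs1, a GTPase activator for inhibitory G proteins that dampens chemokine responses, had 146, 273 and 205 TPM with stearic acid, against 83.2, 79.4 and 67.8 TPM with vehicle. That is 1.38 on the log2 scale with an SE of 0.19 (limma adjusted p = 0.0032), larger in size than that of any of the 9 receptors. Grk5, a receptor kinase, had 8.06, 9.63 and 9.0 TPM, against 5.86, 4.90 and 6.07 TPM with vehicle (log2 0.58, limma adjusted p = 0.0073). Both rises passed in all 14 alternatives. Rgs18 (log2 -0.48) and Rgs10 (log2 -0.39), other members of the RGS family, and the receptor kinase Grk3 (log2 -0.59) fell. The groups of Grk3 overlapped, with stearic acid replicate 1 at 9.16 TPM and vehicle replicate 2 at 8.82 TPM. Its call was near the threshold (limma adjusted p = 0.046) and held in 7 of the 14 alternatives. The 3 falls became 7 without stearic acid replicate 1, 1 without stearic acid replicate 3 or vehicle replicate 1, and 0 without vehicle replicate 2 or 3. The arrestins Arrb1 and Arrb2 did not pass (limma adjusted p = 0.084 and 0.071).

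The cells carried macrophage markers in every library. The summed level of 8 markers, mostly Lyz2, was 23296 to 28828 TPM with stearic acid and 32651 to 33565 TPM with vehicle. The 8 include Adgre1 and Csf1r, and the sum was lowest in stearic acid replicate 2. Of the 8, 4 fell, 1 (Cd68) rose, and Csf1r, Mertk and Cd14 did not pass, against 24.7% of all tested genes that passed. The part of these values, and of the other marker values below, in the receptor changes was not tested. Of 12 neutrophil markers, Retnlg was at 0 throughout and Ly6g, Elane and Mpo were at most 0.0822 TPM, and 3 were tested, of which S100a8 and Mmp8 rose and Csf3r fell. Their summed level, mostly Csf3r, was 21.2 to 32.3 TPM with stearic acid and 30.2 to 37.5 TPM with vehicle. The 6 monocyte markers summed to 0.885 to 1.05 TPM with stearic acid and 1.13 to 1.69 TPM with vehicle. The other lists, of mast cell or basophil, dendritic, lymphoid and stromal markers, had no member at a mean of 1 TPM over the 6 libraries, and none was tested. Kit, a mast cell and progenitor receptor, had 1.05, 1.40 and 1.32 TPM with stearic acid, against 0.504, 0.504 and 0.390 TPM with vehicle, without overlap. Hdc, of the same list, went the other way, also without overlap. It had 0.137, 0.192 and 0.1195 TPM with stearic acid, against 0.299, 0.325 and 0.474 TPM with vehicle. Among tested genes 44.6% had groups that did not overlap. Col1a2, a stromal collagen, had 0.330, 0.347 and 1.05 TPM with stearic acid, against 1.45, 0.890 and 0.671 TPM with vehicle, and the groups overlapped. The sums of these 4 lists were at most 1.6, 1.3, 0.477 and 2.77 TPM with stearic acid and at most 0.906, 1.75, 0.501 and 3.57 TPM with vehicle.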

How the data were processed

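Polyadenylated RNA of 6 samples was analysed, 3 given stearic acid and 3 given vehicle. Per the labels' protocols, libraries were made with a stranded TruSeq mRNA kit. The submitters' processing notes name DRAGEN, with no version, and the builds GRCm38 and mm10, which are names of the same assembly. The annotation and the counting rule, strand included, are not stated in any source used. The authors deposited, per the file headers, a TPM value and an RPKM value (reads scaled by gene length and library depth) for each of 36333 genes and no counts. Within a library the columns are proportional.

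Depth was recovered as the commonest value of 1 read in RPKM over genes with 1 GENCODE vM21 transcript. Per library it came to 58.1 M at the lowest and 80.8 M at the highest, in reads or in read pairs, which could not be told apart. Of the low values checked, 35.8% to 37.8% were whole reads within 0.02 and the rest could reflect a different effective length. Counts were therefore not reconstructed.

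The test was limma 3.58.1 (R 4.3.3) with an intensity-dependent prior on log2(TPM + 1). It covered the 11551 genes averaging 1 TPM or more, with treatment as the only term and Benjamini-Hochberg adjustment at 0.05. It was tested on simulated data with independent noise for each gene and library. Those data did not include the differing distances of the stearic acid libraries from vehicle. All 9 receptors were at 1 TPM or more in every library. The summed receptor level was tested with exact permutation over 20 assignments, which cannot give a p under 0.1. Shared sequence was counted as 50-base windows of GENCODE vM21 transcripts. The windows before starts are from the RefSeq table of GRCm38.p6, which held all 9 receptors. Names of Grk2 and Grk3 were matched through gene numbers, and 27 gene symbols altered by a spreadsheet into dates were restored the same way.

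The receptors, 4 pathway lists, 8 marker lists and motifs were chosen with earlier results of these data known. Named were all receptors, the 3 called members of a pathway list with the smallest p in each direction (all of them where 5 or fewer were called), Cx3cr1, and the 3 nearest profiles. 1 gene of the list of other receptors is not reported here and was left out of its counts. Other members of the lists were named after their values were seen. 14 alternatives were run: scaling, quantile normalization, RPKM, pseudocount 0.1, 2 filters, no trend, a replicate block and leaving out each library.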

Additional observations from a re-analysis of the deposited data

How the results depend on the processing

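The 9 receptors kept the sign of their log2 fold change in every alternative in which they were tested, except Cxcr4, which was at -0.45 without stearic acid replicate 1 and at 0.0107 without stearic acid replicate 2. Leaving out libraries could not turn the sign of the other 8, whose groups do not overlap. Ccr3 and Ccrl2 passed in all 14 alternatives. With RPKM, Fpr1 lay below the filter and was not tested. With no filter on low values, 672 genes were higher and 355 lower, and 2 receptors were lower, as Ccr2 (limma adjusted p = 0.063) and Fpr1 (0.077) did not pass. Over the fits without 1 library, 384 to 2217 genes were higher and 136 to 2796 lower, and 1 to 3 receptors were higher and 1 to 6 lower. Among the lists without the filter, 2 of the other receptors were lower (5 with quantile normalization), 1 ligand higher, no signal carrier passed, and 2 signalling brakes were higher. The median log2 fold change over tested genes stayed between -0.06 and 0.02 in all settings. With the replicate number as a block, 3 receptors were higher and 4 lower, and 1641 genes were higher and 1997 lower. The block took the falls among signal carriers to 5, among brakes to 5 and among ligands to 1. The deviations of same-numbered libraries correlated at 0.07, 0.29 and 0.04, and stearic acid replicates 1 and 3 correlated best with vehicle replicates 3 and 2, so the numbers were not taken as pairs. Reads behind Fpr1 and Fpr2 are few, which limits the precision of their folds.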
